A study of Sus scrofa with 12 samples.

Results

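The genes described here encode chaperones and protein folding enzymes: heat shock proteins, their J-domain partners, the cytosolic chaperonin CCT, protein disulfide isomerases, the lectin chaperones calreticulin and calnexin, and the prolyl isomerases of the FKBP and cyclophilin families. They were taken by gene symbol and family, with earlier results of these data known. The array carried 125 probe sets of 76 such genes, and 117 probe sets of 73 genes lay over log2 4 in at least 3 of the 12 arrays, out of 17638 probe sets of the whole table that did so. The 8 that did not pass were the single probe sets of HSPB3, HSPA12A and FKBP6 and a further probe set each of DNAJA4, PPIG, HSPA4, PPID and CCT4, and none of these was over log2 4 in any array. At the edge of the filter, the third-highest array of PDIA4's weakest probe set read 4.09 and that of the failing PPIG probe set 3.72.

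The cells were interstitial cells of the aortic valve (VICs), fibroblast-like cells that make the leaflet matrix, isolated from adult pigs. The 4 groups held 3 biological replicates each. P2 cells were grown on plastic through 2 passages, held in 1% serum, and collected after 3 days of culture untreated, or after the last 8 h or 24 h in porcine TGF-β1 at 5 ng/ml. P0 cells were collected straight from the collagenase II digest of the leaflet, with no culture and no treatment. The labels do not say whether a replicate is 1 animal or a pool, so the p-values measure the spread between these preparations.

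A chaperone binds a protein that is not yet folded and releases it in cycles, most often driven by ATP. In the cytosol, HSP70 proteins take clients from J-domain partners, exchange factors such as HSPH1 reset them, and HSP90 acts later on kinases and steroid receptors. A part of this set is switched on within minutes of heat or proteotoxic stress by the transcription factor HSF1. The endoplasmic reticulum (ER) has its own HSP70 (HSPA5, also called BiP) and HSP90 (HSP90B1), and adds disulfide isomerases and lectin chaperones for secreted proteins, with several FKBPs that act on procollagen. Its genes are raised by the unfolded protein response. Collagen is the main secreted load of an activated valve interstitial cell, and TGF-β1 is the cytokine most used to activate it.

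Values are deposited log2 expression values per probe set, so a difference of 1 is a 2-fold change. Per array, 16564 to 17247 probe sets exceeded log2 4, and arrays of the same group correlated at 0.982 to 0.994. Differences are log2 fold changes with the standard error (SE) from a limma fit over all 12 arrays, with 3 arrays in each group. A gene was called at a Benjamini-Hochberg adjusted p under 0.05 over all 17638 probe sets. A gene with several probe sets stands by the one with the highest mean, and the others are given for some of the genes where they differ.

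The labelled cell type was checked against its markers. VIM, the intermediate filament of mesenchymal cells, averaged 15.57 in untreated P2 and 15.62 in P0 cells, and the matrix proteoglycan genes DCN and LUM averaged at least 13.34 in both. COL3A1 averaged 5.93 in P2 and 5.75 in P0 cells, and S100A4 averaged 12.40 in P2 and 7.30 in P0. Of the 9 interstitial and fibroblast markers tested, 1 rose and 4 fell in untreated P2 cells, with log2 fold changes from -1.89 to 5.10. Over all genes tested, 42.1% rose and 24.2% fell in that contrast. Markers of other cells were present too. The 7 macrophage markers tested had a mean log2 level of 5.93 to 6.31 across untreated P2 arrays and 8.64 to 9.10 across P0 arrays, and 6 of them fell in P2 cells, with CD163 at 5.41 in P2 and 10.95 in P0. The 12 endothelial markers tested split the P2 arrays by replicate: their mean level was 5.74 to 5.97 in the 3 arrays numbered 3 and 7.24 to 7.92 in the other P2 arrays, against 7.11 to 7.39 in P0 arrays. None of the 4 lymphocyte markers on the array passed the filter, and the erythrocyte gene HBB averaged 8.11 in P2 and 8.88 in P0. In bulk samples such as these, fewer cells of a type and less RNA per cell cannot be told apart.

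Culture was the larger of the contrasts for these genes. Of the 73 genes, 34 rose and 20 fell in untreated P2 cells compared with P0 cells. Over all 6014 genes tested, 42.1% rose and 24.2% fell, so neither count stands far from the background of the array. By probe set, 44 of 117 rose and 36 fell, against 33.6% and 25.8% of all probe sets. The classes differed in direction. Of 22 cytosolic heat shock genes, 14 fell and 7 rose, with a median log2 fold change of -1.28. Of 17 ER folding genes, 4 fell and 4 rose, with a median of 0.03, and over all genes tested the median was 0.20.

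**Figure D1:**
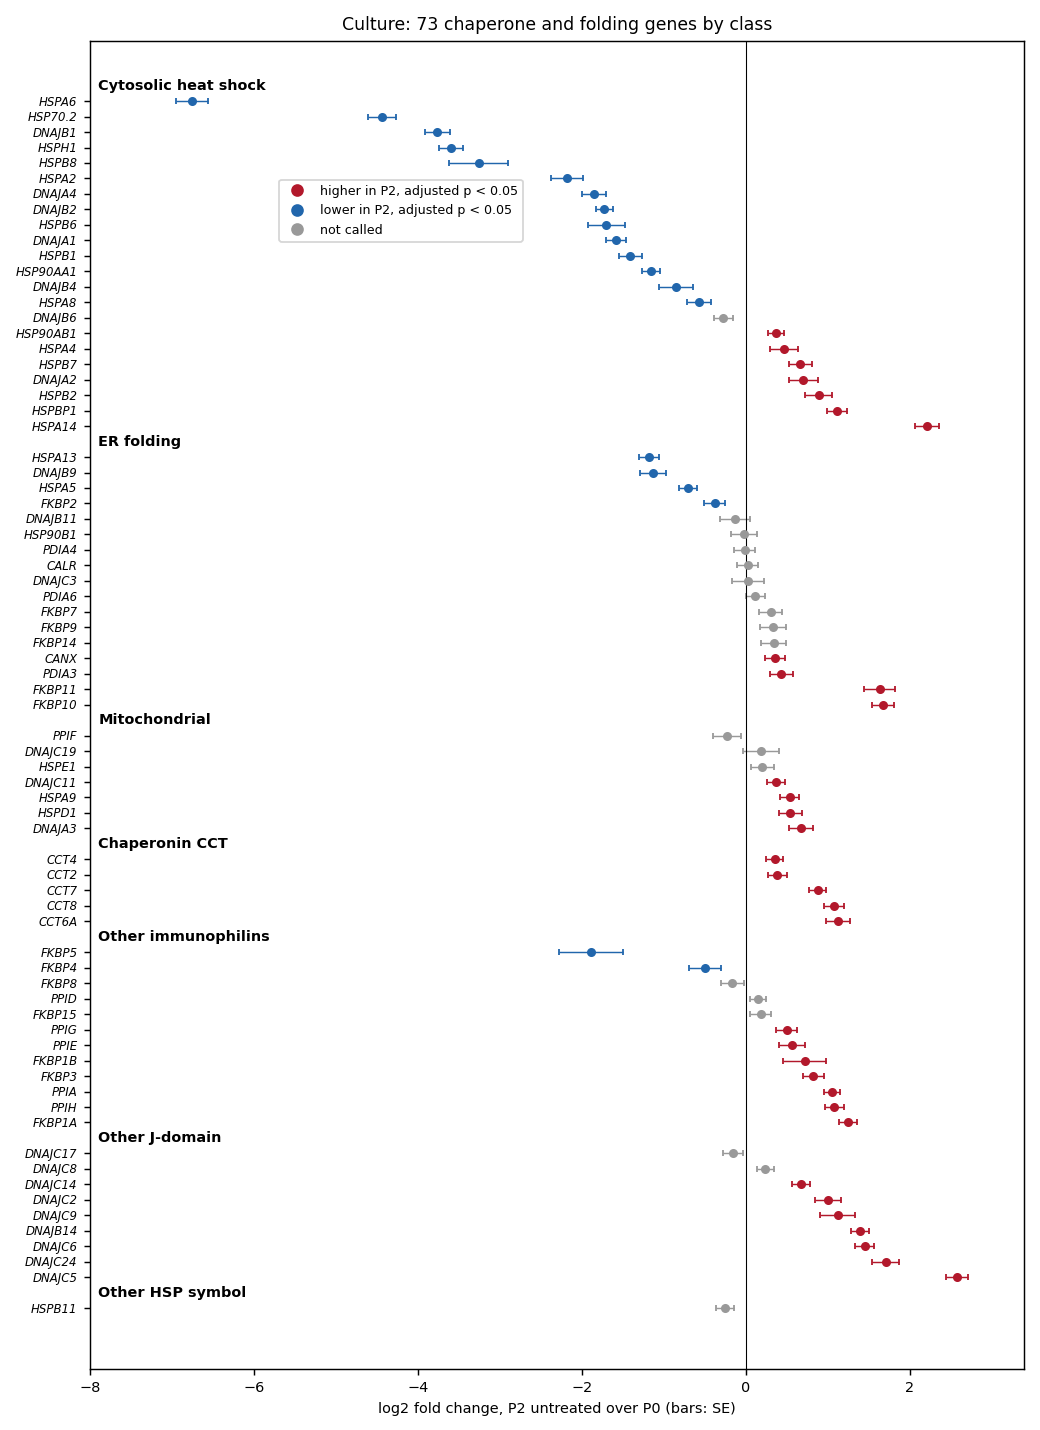
Log2 fold change of untreated P2 over P0 cells for each of the 73 genes (points, with SE bars, 3 arrays a group), sorted within class. Red points rose and blue points fell at an adjusted p under 0.05, and grey points were not called. The longest falls, to -6.76, lie in the cytosolic heat shock class, while the 5 CCT subunits all lie to the right of 0.

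The stress-inducible HSP70 genes fell furthest. HSPA6, an HSP70 gene that is hardly used without stress, read 5.58, 5.73 and 5.80 in the untreated P2 arrays, against 12.77, 12.67 and 11.94 in the P0 arrays. Every P0 array lies more than 6 log2 units above every untreated P2 array. Its log2 fold change was -6.76 ± 0.19, a 108-fold lower level (adjusted p = 2.04e-10). The pig gene listed as HSP70.2, an inducible cytosolic HSP70, read 10.89, 11.15 and 10.88 in P2 and 15.62, 15.63 and 14.98 in P0 cells, a log2 fold change of -4.44 ± 0.17 (adjusted p = 1.89e-09). All 3 of its probe sets fell, the other ones by 3.98 and 2.44, and inducible HSP70 genes have near-identical copies whose transcripts these probes may share.

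Of the HSP70 partners, 6 fell, 3 rose and 1 was not called. DNAJB1, the J-domain protein that delivers clients to HSP70 after heat shock, read 9.98, 9.72 and 9.83 in P2 and 13.85, 13.61 and 13.36 in P0 cells (log2 fold change -3.76 ± 0.15, 13.6-fold lower). HSPH1, the HSP110 exchange factor, read 10.26, 10.20 and 10.42 in P2 and 14.08, 13.93 and 13.68 in P0 cells (-3.60 ± 0.15, 12.1-fold lower). In both genes every untreated P2 array lay over 3 log2 units below every P0 array. The J-domain genes DNAJA4, DNAJB2, DNAJA1 and DNAJB4 fell by 1.85, 1.73, 1.58 and 0.85. DNAJB6 did not pass the test (-0.27, adjusted p = 0.0570), although 3 of its 4 probe sets fell.

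The small heat shock proteins, chaperones that hold unfolded clients without using ATP, did not move as a block. HSPB8, which works with the co-chaperone BAG3 in selective autophagy, read 8.17, 7.53 and 8.51 in P2 and 11.45, 11.61 and 10.92 in P0 cells (-3.26 ± 0.36). HSPB6 and HSPB1 (HSP27) fell by 1.70 and 1.41. HSPB2 and HSPB7, both best known from heart and skeletal muscle, rose by 0.89 ± 0.16 and 0.67 ± 0.14. HSPB8 and HSPB6 were each highest among untreated P2 arrays in the array numbered 3, whose endothelial marker level was 5.89 against 7.63 and 7.92 in its companions. The part of those cells in the small heat shock values was not tested. Without the P2 arrays numbered 3, HSPB8 fell by 3.48.

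**Figure D2:**
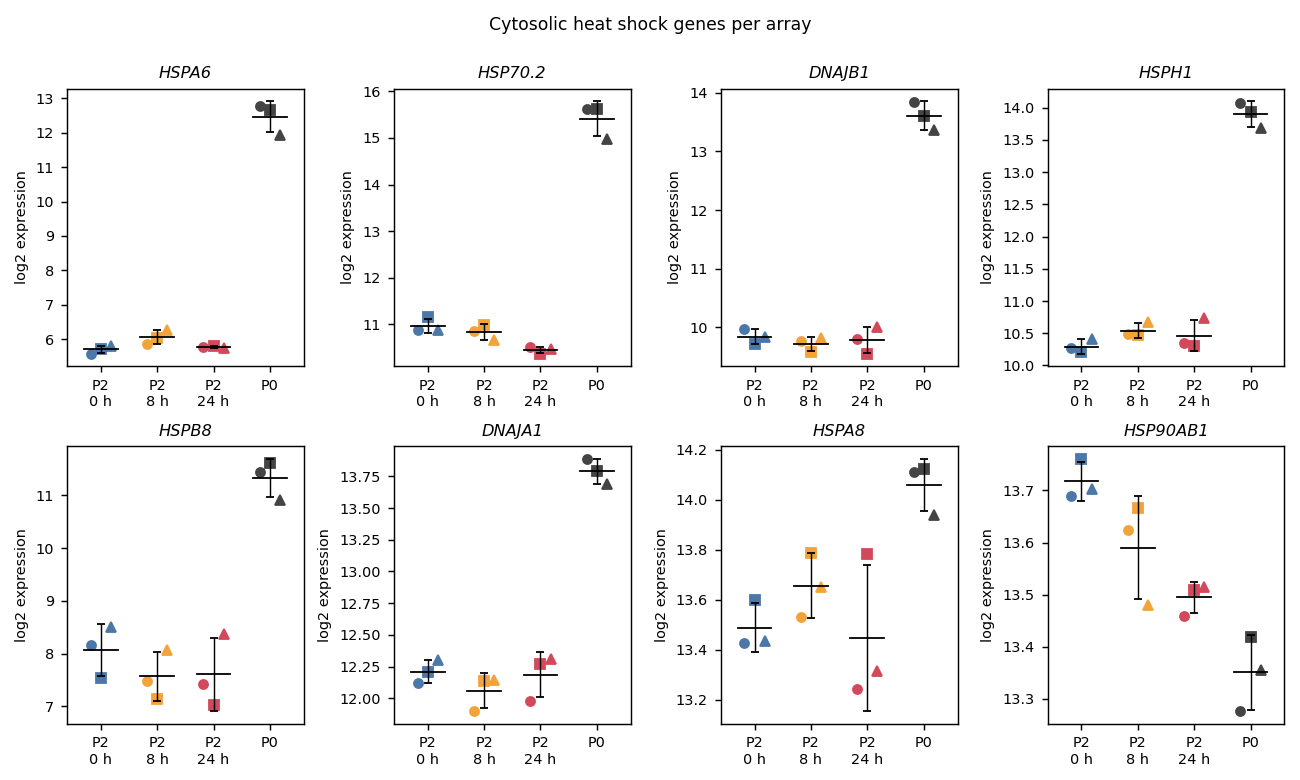
Log2 expression of 8 cytosolic heat shock genes per array, in untreated P2 cells (0 h), P2 cells after 8 h and 24 h of TGF-β1 and P0 cells. Circles, squares and triangles are replicates 1, 2 and 3, lines are means and bars are SD (n = 3). HSPA6, HSP70.2, DNAJB1 and HSPH1 are low in all P2 groups and high in P0, HSP70.2 is lower at 24 h than in untreated cells in all 3 arrays, and HSP90AB1 is highest in untreated P2 cells.

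HSP90AB1, HSP90AA1 and HSPA8 moved less. HSP90AB1, the constitutive HSP90, rose by 0.37 ± 0.10, reading 13.69, 13.76 and 13.70 in P2 and 13.28, 13.42 and 13.36 in P0 cells. HSP90AA1, the inducible one, fell by 1.16 ± 0.11, with 13.67, 13.68 and 13.57 in P2 and 14.86, 14.93 and 14.59 in P0 cells. Of its 5 probe sets, 4 fell and 1 rose (by 0.50), so the probe sets of HSP90AA1 do not all point one way. HSPA8, the constitutive HSC70, fell by 0.57 ± 0.14 on its brightest probe set. Its other 3 were not called and had values of 0.31, -0.22 and 0.01, so its probe sets do not all point one way. HSPA2, an HSP70 known from mouse spermatogenesis, fell by 2.18 ± 0.20. The rises were HSPA14, a ribosome-associated HSP70 relative (2.21 ± 0.15, 4.62-fold), the exchange factor HSPBP1 (1.11 ± 0.12), DNAJA2 (0.70), and the HSP110 relative HSPA4 (0.47, on 1 of 2 probe sets). P2 and P0 arrays did not overlap in any of the 22 cytosolic genes, where 72% of all genes tested did not overlap.

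The genes outside the symbol rule that act beside this class were mixed. Of 13 genes of a list of heat shock regulators and co-chaperones, 4 fell and 4 rose, where 24.2% of all genes tested fell and 42.1% rose. BAG3, the partner of HSPB8 and HSP70, fell by 3.41, the small heat shock protein gene CRYAB by 1.25 and the HSP70-HSP90 adaptor gene STIP1 by 1.01. The HSP90 co-chaperone gene PTGES3 (p23) rose by 1.29. The stress regulators HSF1 (-0.11, adjusted p = 0.40) and HSF2 (0.16, adjusted p = 0.29) were not called.

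Beside the cytosolic heat shock class, in which 14 of 22 genes fell and 7 rose, genes of the immediate-early class were also lower in culture. Cells switch these on within minutes of handling or growth factor contact. All 13 that were tested fell, the median log2 fold change being -4.63. Their mean level was 8.90 to 9.07 in the untreated P2 arrays and 13.14 to 13.33 in the P0 arrays, and FOS fell by 7.0. P0 cells came straight from enzymatic digestion and P2 cells did not, so the digestion, the culture and the low serum cannot be told apart between the groups. The part of these in the heat shock values was not tested, nor was that of the macrophage markers.

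In the ER class, 4 of 17 genes fell and 4 rose in culture, 23.5% each, where 24.2% of all genes fell and 42.1% rose. HSPA5, the ER HSP70, read 14.43, 14.67 and 14.37 in untreated P2 and 15.25, 15.15 and 15.18 in P0 cells, a fall of 0.70 ± 0.11 (1.63-fold, adjusted p = 1.05e-04). HSPA13, a small HSP70 relative of microsomes, fell by 1.18 ± 0.13, and DNAJB9, an HSPA5 partner induced by the unfolded protein response, by 1.14 ± 0.16 with all 3 probe sets down. FKBP2 fell by 0.38 ± 0.12. These 4 lay apart between the groups in every array. In all, 11 of the 17 ER genes did not overlap, against 72% of all genes tested.

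Of the ER prolyl isomerases, FKBP10 and FKBP11 rose, FKBP2 fell and FKBP7, FKBP9 and FKBP14 were not called. FKBP10 (FKBP65), a procollagen chaperone whose loss causes brittle bone disease in humans, read 12.39, 12.37 and 12.19 in untreated P2 and 10.45, 10.73 and 10.75 in P0 cells, a rise of 1.67 ± 0.13 (3.19-fold, adjusted p = 4.62e-07). FKBP11 read 12.50, 12.55 and 12.14 in P2 and 10.84, 10.29 and 11.16 in P0 cells, a rise of 1.63 ± 0.19. Both genes were more than 3-fold higher in P2 cells, with no overlap.

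The lectin chaperones and disulfide isomerases had small differences. CANX, the membrane lectin chaperone, rose by 0.35 ± 0.12 and PDIA3, the isomerase that works with it, by 0.43 ± 0.14. Both calls depended on single arrays: CANX lost its call without P0 replicate 1 or 2 or untreated P2 replicate 2 or 3 (adjusted p = 0.0615 to 0.0878), and PDIA3 without P0 replicate 2 or untreated P2 replicate 1 (0.0667 and 0.0751). Of 6 CANX probe sets, 3 rose and the dimmest fell, with a P2 mean under the level of reporter controls. PDIA3 was called on 1 of its 3 probe sets. HSP90B1 (-0.02 ± 0.16), PDIA4 (-0.01 ± 0.13), CALR (0.02 ± 0.13), DNAJC3 (0.03 ± 0.20), PDIA6 (0.12 ± 0.12) and DNAJB11 (-0.13 ± 0.18) did not pass the test. FKBP7, FKBP9 and FKBP14 had values of 0.30 to 0.34 and were not called either, and DNAJB11 was called without P0 replicate 2 (adjusted p = 0.0426), its P0 arrays reading 10.14, 9.54 and 10.34.

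Of 17 further genes of ER folding and the unfolded protein response, 6 rose and 6 fell in culture, where 42.1% of all genes tested rose and 24.2% fell. XBP1, a transcription factor of that response, fell by 1.70, HYOU1, the ER HSP110, by 1.44 and MANF, a factor secreted under ER stress, by 1.11. ERO1A, the oxidase that recharges disulfide isomerases, rose by 2.12. Of 9 genes of collagen modification and export, 3 rose and none fell, and 33.3% up lies under the 42.1% of all genes. The 3 were SEC23A (1.04) and SEC24D (0.65), coat subunits of the vesicles that carry procollagen out of the ER, and the lysyl hydroxylase PLOD1 (0.82).

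In the remaining classes, rises outnumbered falls, as they did over all genes, of which 42.1% rose. The mitochondrial and immunophilin counts lie nearest that share. All 5 CCT subunits measured, which fold actin and tubulin, rose, with CCT6A highest at 1.13 ± 0.15 and CCT4 lowest at 0.35 ± 0.11. CCT6A read 11.63, 11.79 and 11.68 in untreated P2 and 10.56, 10.39 and 10.76 in P0 cells, and CCT4 lost its call without untreated P2 replicate 1 (adjusted p = 0.0604). Of 7 mitochondrial genes, 4 rose: DNAJA3 (0.67), the chaperonin HSPD1 (HSP60, 0.55), the mitochondrial HSP70 HSPA9 (0.54) and DNAJC11 (0.37). The DNAJC11 call was lost without untreated P2 replicate 2 (adjusted p = 0.0577), and its dimmer probe set fell. HSPE1, the partner ring of HSPD1 (0.20), DNAJC19 (0.19) and PPIF (-0.23) did not pass the test. The mitochondrial folding genes TRAP1 (1.11), LONP1 (0.94) and GRPEL1 (0.49), which the symbol rule leaves out, rose too.

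Among 12 other immunophilins, 7 rose and 2 fell. FKBP1A (FKBP12, the target of rapamycin and FK506) rose by 1.24 ± 0.11, PPIH by 1.08 ± 0.12 and PPIA (cyclophilin A) by 1.05 ± 0.10, with FKBP3, FKBP1B, PPIE and PPIG rising by 0.83, 0.72, 0.57 and 0.50. The FKBP1B arrays of the groups overlapped. FKBP5, an HSP90 co-chaperone that glucocorticoids induce, read 8.42, 8.91 and 7.71 in untreated P2 and 10.09, 10.22 and 10.40 in P0 cells, a fall of 1.89 ± 0.39. Its relative FKBP4 fell by 0.50 ± 0.19. FKBP5 was lowest in the P2 array numbered 3, the one low in endothelial markers, and fell by 1.57 without the arrays of that number. The part of those cells in the FKBP5 values was not tested. FKBP8, PPID and FKBP15 had values of -0.16, 0.15 and 0.18 and were not called.

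Among 9 other J-domain genes, 7 rose and none fell. DNAJC5, the cysteine string protein of secretory vesicles, read 8.69, 8.82 and 8.96 in untreated P2 and 6.36, 5.99 and 6.38 in P0 cells, a rise of 2.58 ± 0.14 (5.97-fold, adjusted p = 2.39e-08). DNAJC24, which acts in diphthamide synthesis, rose by 1.71, DNAJC6 (auxilin), which uncoats clathrin vesicles, by 1.45 and the ER membrane protein DNAJB14 by 1.39. The dimmer DNAJB14 probe set was not called (-0.08). DNAJC9, DNAJC2 and DNAJC14 rose by 1.12, 1.00 and 0.67. DNAJC8 (0.24), DNAJC17 (-0.16) and HSPB11 (-0.25), an intraflagellar transport subunit despite its symbol, did not pass the test.

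TGF-β1 moved fewer of these genes. After 8 h, 3 of the 73 rose and 1 fell relative to untreated P2 cells, where 2.74% of all genes tested rose and 2.84% fell. After 24 h, 6 rose and 2 fell, against 4.42% and 5.67% of all genes. By probe set, 6 rose and 1 fell at 8 h (2.53% and 2.53% of all probe sets), and 12 rose and 4 fell at 24 h (4.27% and 4.22%). With replicate number as a block, which pairs P2 arrays of the same number, 7 rose and 2 fell at 8 h (6.15% and 8.03% of all genes), and 15 rose and 7 fell at 24 h (10.1% and 13% of all genes). Treated and untreated arrays did not overlap in 23 of the 73 genes at 8 h and 25 at 24 h. Over all genes tested, 28.1% and 30.1% did not overlap. Both times were set against the same 3 untreated arrays, as was culture, so the comparisons are not independent of each other.

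The ER folding class held 4 of the 6 rises at 24 h. All 17 ER genes had a positive log2 fold change at 24 h, with a median of 0.37, where 48.1% of all genes tested were positive and the median was -0.01. At 8 h, 14 of 17 were positive, with a median of 0.11, and 2 rose. Of the 22 cytosolic heat shock genes, 10 were positive at 24 h, with a median of -0.03, 1 rose and 1 fell. At 8 h none of the 22 was called without the replicate block, and the median was 0.02. An unadjusted p under 0.05 was found in 2 of the 22 at 8 h, where 18.9% of all genes had one, and in 10 of the 22 at 24 h, where 25.8% did. With the replicate block, HSPB7 rose and HSPB8 fell at 8 h, and 1 of the 22 rose and 6 fell at 24 h. That fit called 6.15% of all genes up and 8.03% down at 8 h, and 10.1% and 13% at 24 h.

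**Figure D3:**
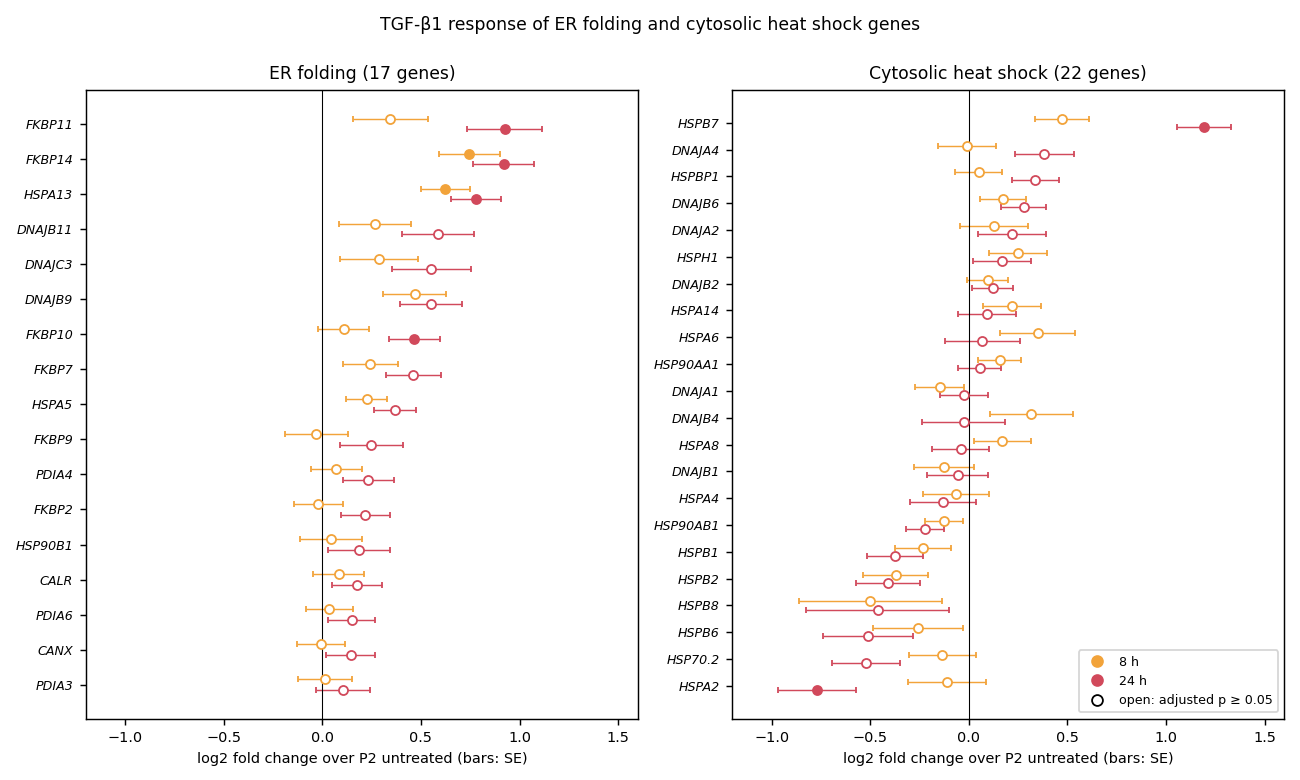
Log2 fold change over untreated P2 cells after 8 h (orange) and 24 h (red) of TGF-β1, with SE bars (3 arrays a group), for the 17 ER folding genes on the left and the 22 cytosolic heat shock genes on the right. Filled points had an adjusted p under 0.05. Every ER gene lies to the right of 0 at 24 h, from 0.11 to 0.93, and the cytosolic genes lie on both sides, from -0.77 to 1.19.

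FKBP14, FKBP11 and HSPA13 had the clearest ER rises. FKBP14 (FKBP22), an ER prolyl isomerase that binds several collagens and is mutated in a form of Ehlers-Danlos syndrome in humans, read 10.57, 10.76 and 10.47 in untreated cells, 11.23, 11.49 and 11.32 at 8 h and 11.43, 11.82 and 11.31 at 24 h, with P0 cells at 10.28, 10.06 and 10.44. The treated arrays lie above all untreated ones at both times. Its log2 fold change was 0.74 ± 0.16 at 8 h (adjusted p = 0.0185) and 0.92 ± 0.16 at 24 h (1.89-fold, adjusted p = 0.00399), and all 3 of its probe sets rose at 24 h.

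HSPA13 read 9.84, 9.68 and 9.80 in untreated cells, 10.21, 10.46 and 10.52 at 8 h and 10.34, 10.76 and 10.56 at 24 h, with P0 cells at 10.98, 10.92 and 10.96. The treated arrays lie between the untreated ones and P0. It rose by 0.62 ± 0.13 at 8 h (adjusted p = 0.0167) and 0.78 ± 0.13 at 24 h (1.72-fold, adjusted p = 0.00337). The 8 h calls of these genes were each lost when any of several arrays was left out: FKBP14 without untreated replicate 1 or 3 or 8 h replicate 2 or 3 (adjusted p = 0.0542 to 0.0794), and HSPA13 without untreated replicate 2 or 3 or 8 h replicate 2 or 3 (0.0537 to 0.0677). Their 24 h calls held whichever single array was left out. Fits with an array left out, here and below, were run without the block. With the replicate block, the 8 h rises had adjusted p = 0.00421 for FKBP14 and 0.0167 for HSPA13. The dimmer HSPA13 probe set was called at 8 h in neither fit (0.60).

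FKBP11 read 12.50, 12.55 and 12.14 in untreated cells, 12.83, 12.74 and 12.66 at 8 h and 13.40, 13.30 and 13.27 at 24 h. The 3 groups do not overlap. The value at 8 h was 0.34 ± 0.19 (adjusted p = 0.404), and at 24 h it rose by 0.93 ± 0.19 (1.90-fold, adjusted p = 0.0113), which became 0.0532 without untreated replicate 3. FKBP10 read 12.39, 12.37 and 12.19 in untreated cells, 12.49, 12.38 and 12.41 at 8 h and 12.90, 12.55 and 12.91 at 24 h. Its rise at 24 h, 0.47 ± 0.13 (1.38-fold, adjusted p = 0.0470), stood at the threshold and was lost when any single array other than P0 replicate 1 or 24 h replicate 2 was left out (0.0558 to 0.168). With the replicate block, the 24 h rises had adjusted p = 9.11e-04 for FKBP11 and 0.0249 for FKBP10.

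**Figure D4:**
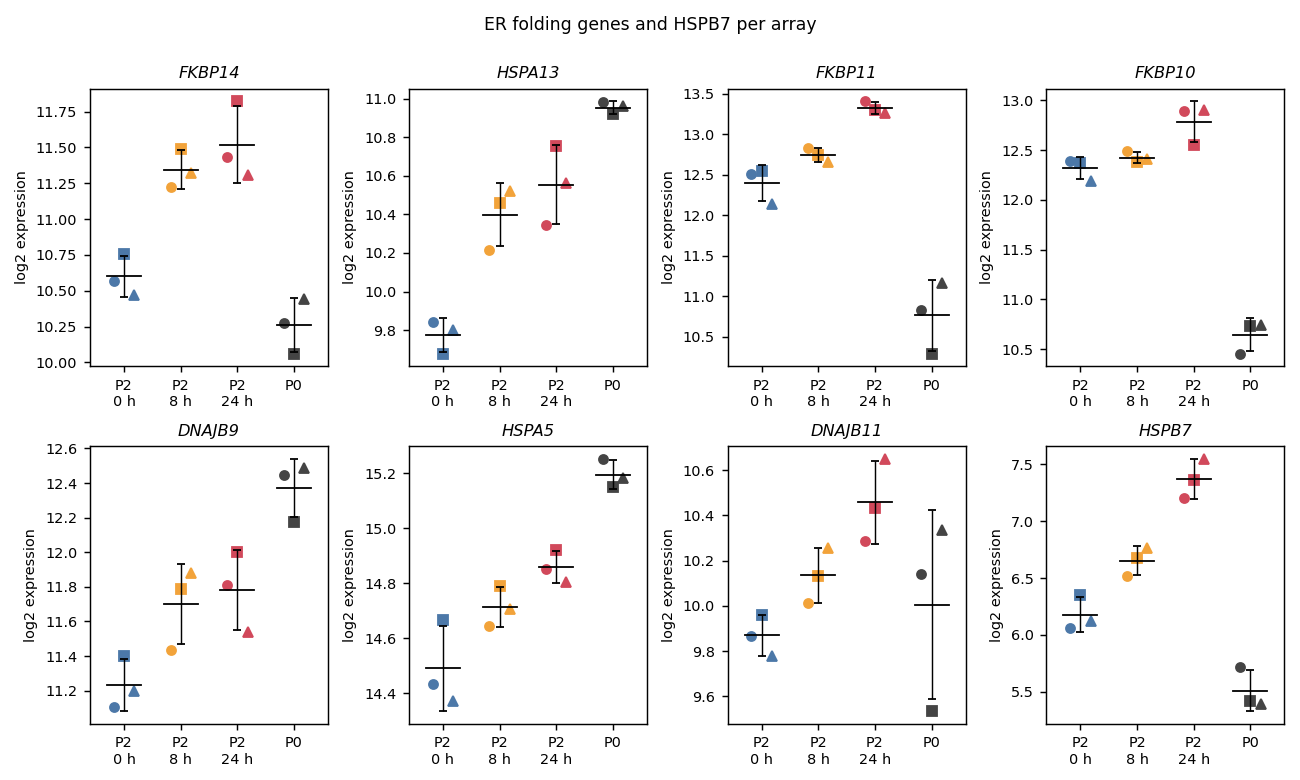
Log2 expression of 7 ER folding genes and of the cytosolic HSPB7 per array, in untreated P2 cells (0 h), P2 cells after 8 h and 24 h of TGF-β1 and P0 cells. Circles, squares and triangles are replicates 1, 2 and 3, lines are means and bars are SD (n = 3). FKBP11 and HSPB7 lie higher at 24 h than at 8 h in all 3 arrays, and HSPA13, DNAJB9 and HSPA5 are highest in P0.

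Other ER genes lay at the edge of the test. DNAJB9 was not called at 24 h on its brightest probe set (0.55 ± 0.16, adjusted p = 0.0539), while its other 2 rose by 0.67 and 0.99 (adjusted p = 0.0168 and 0.00133). HSPA5 read 14.85, 14.92 and 14.81 at 24 h and 14.43, 14.67 and 14.37 in untreated cells, a difference of 0.37 ± 0.11 (adjusted p = 0.0527), with no overlap. DNAJB11, an HSPA5 partner, had 0.59 ± 0.18 (0.0709), FKBP7 0.46 ± 0.14 (0.0620) and DNAJC3, an HSPA5 co-chaperone, 0.55 ± 0.20 (0.114). With the replicate block these 5 genes rose at 24 h as well, with adjusted p = 0.0266 for DNAJB9, 0.0203 for HSPA5, 0.00899 for DNAJB11, 0.0146 for FKBP7 and 0.00900 for DNAJC3. In that fit the second DNAJC3 probe set was not called (0.32, adjusted p = 0.0762). That fit called 9 of 17 ER genes up and none down at 24 h, where 10.1% of all genes rose and 13% fell.

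The ER HSP90, the lectin chaperones and the disulfide isomerases had small values. At 24 h the values were 0.18 for HSP90B1, 0.18 for CALR, 0.14 for CANX, 0.11 for PDIA3, 0.23 for PDIA4 and 0.15 for PDIA6, none of them called in either fit. FKBP9 (0.25) and FKBP2 (0.22) were not called either. Of the other ER and unfolded protein response genes, MANF rose by 0.76 at 8 h, and MANF and HYOU1 rose by 0.70 and 0.79 at 24 h, making 1 of 17 and 2 of 17. Over all genes tested, 2.74% rose at 8 h and 4.42% at 24 h. XBP1 had 0.20 at 24 h (adjusted p = 0.26). Of 9 collagen modification and export genes, SEC24D and SEC23A rose at both times, by 0.53 and 0.44 at 8 h and 0.56 and 0.72 at 24 h. The collagen chaperone SERPINH1 (HSP47) had 0.45 at 24 h (adjusted p = 0.0506) and the prolyl hydroxylase subunit P4HA2 0.75 (0.0654). These and the other genes outside the symbol rule are given in the fit without the block only.

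Among cytosolic genes HSPB7 stood out. It read 6.06, 6.35 and 6.13 in untreated cells, 6.51, 6.68 and 6.76 at 8 h and 7.20, 7.36 and 7.54 at 24 h, with P0 cells at 5.72, 5.42 and 5.39. The 4 groups do not overlap. It rose by 1.19 ± 0.14 at 24 h (2.28-fold, adjusted p = 4.22e-04), and the value at 8 h was 0.47 ± 0.14 (adjusted p = 0.0726, and 0.0213 with the replicate block). HSPB8 had -0.50 at 8 h, with adjusted p = 0.557, and 0.0408 with the replicate block. Other small heat shock genes had values below 0 at 24 h, none called without the block: HSPB6 -0.51, HSPB8 -0.46, HSPB2 -0.41 and HSPB1 -0.37.

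HSPA2 fell at 24 h by 0.77 ± 0.20 (1.70-fold, adjusted p = 0.0329), reading 8.50, 9.13 and 8.44 at 24 h and 9.29, 9.40 and 9.68 in untreated cells. The call was lost when any single untreated array, or 24 h replicate 1 or 3, was left out (0.0538 to 0.131). HSP70.2 had -0.52 ± 0.17 (adjusted p = 0.0843), with 10.51, 10.38 and 10.47 at 24 h and 10.89, 11.15 and 10.88 in untreated cells, which do not overlap. With the replicate block HSP70.2, HSPA2, HSPB1, HSPB2, HSPB6 and HSPB8 fell at 24 h, with adjusted p from 0.0110 to 0.0387. By brightest probe set, HSPB7 alone of the class rose. Of the other genes, dimmer probe sets were called in that fit at 24 h. They were 0.43 and 0.53 for HSP90AA1 (adjusted p = 0.0158 and 0.0103), -0.42 for HSPA4 (0.0200) and -0.58 and -0.43 for HSPA8 (0.00980 and 0.0297). At 8 h, dimmer HSPA8 probe sets were called in that fit at -0.47 and -0.33 (adjusted p = 0.0303 and 0.0473). The brightest had 0.17 (0.320). Of the genes with deep falls in culture, 4 were called at neither time in either fit: HSPA6 had 0.35 at 8 h and 0.07 at 24 h, DNAJB1 -0.13 and -0.06, HSPH1 0.25 and 0.17, and DNAJA1 -0.15 and -0.02. HSP90AA1 (0.06) and HSP90AB1 (-0.22) were not called at 24 h, and HSPA8 was not on its brightest probe set (-0.04), while 2 of its dimmer ones fell by 0.58 and 0.43. None of the 13 heat shock regulators and co-chaperones was called at either time without the block. An unadjusted p under 0.05 was found in 2 of them at 8 h and 1 at 24 h (18.9% and 25.8% of all genes).

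Outside these classes, FKBP1B had the largest rise of the 73 genes at both times of TGF-β1. FKBP1B (FKBP12.6), known for binding the cardiac ryanodine receptor, read 9.27, 9.58 and 8.45 in untreated cells, 10.36, 10.34 and 9.92 at 8 h and 10.64, 10.57 and 9.96 at 24 h, with P0 cells at 8.26, 8.39 and 8.48. Treated and untreated arrays do not overlap, and the array numbered 3 is lowest in each P2 group. It rose by 1.11 ± 0.26 at 8 h (2.15-fold, adjusted p = 0.0326) and 1.29 ± 0.26 at 24 h (2.45-fold, adjusted p = 0.0108), and its second probe set rose too. The 8 h call was lost when any single 8 h array, or untreated replicate 1 or 3, was left out (0.0504 to 0.119). With the replicate block the adjusted p was 0.00386 at 8 h and 0.00100 at 24 h. The part of endothelial cells, low in the arrays numbered 3, was not tested. Without those arrays the rises were 0.92 (adjusted p = 0.0209) and 1.18 (0.00301).

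DNAJC6 fell at both times, by 0.54 ± 0.12 at 8 h (adjusted p = 0.0217) and 0.50 ± 0.12 at 24 h (0.0216). It read 6.98, 6.98 and 6.96 in untreated cells, 6.37, 6.55 and 6.36 at 8 h and 6.55, 6.52 and 6.35 at 24 h, with P0 cells at 5.33, 5.70 and 5.53. The treated arrays lie below the untreated ones and above P0. At 8 h the call was lost when any single untreated array, or 8 h replicate 1 or 3, was left out (0.0582 to 0.0898). At 24 h it was lost when any single untreated array, or 24 h replicate 3, was left out (0.0545 to 0.0669). With the replicate block DNAJC6 fell at both times (adjusted p = 0.00881 and 0.00712). DNAJC2, DNAJC24 and DNAJB14 had positive values and were called up with the replicate block alone. DNAJC2, which acts at the ribosome, had 0.52 at 8 h and 0.42 at 24 h (adjusted p = 0.0903 and 0.137, and 0.0173 and 0.0268 with the block). DNAJC24 had 0.44 and 0.45 (0.173 and 0.125, and 0.0132 and 0.00829 with the block). Treated and untreated arrays did not overlap in either gene, nor in 28.1% of all genes at 8 h and 30.1% at 24 h. DNAJB14 had 0.31 at 24 h (0.128, and 0.0335 with the block). The cyclophilin PPID (Cyp40), an HSP90 co-chaperone, had 0.34 at 8 h and 0.36 at 24 h (0.0897 and 0.0515, and 0.0450 and 0.0267 with the block). None of the 5 CCT or 7 mitochondrial genes was called at either time in either fit on its brightest probe set. The dimmest CCT6A probe set rose by 0.50 at 24 h with the block (adjusted p = 0.0434). CCT6A had 0.26 and 0.19 and DNAJC11 0.25 and 0.25 at 8 h and 24 h, HSPA9 had 0.23, HSPD1 -0.07 and HSPE1 -0.20 at 24 h, and FKBP5 had -0.18 at 24 h.

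Between 24 h and 8 h of TGF-β1, the fit without the block called none of the 73 genes. Of the 73, 7 had an unadjusted p under 0.05. In that fit 0.15% of all genes rose, 0.133% fell and 9.18% had an unadjusted p under 0.05. None of the 117 probe sets was called either, against 0.142% up and 0.0907% down over all probe sets. HSPB7 came closest (0.72 ± 0.14, adjusted p = 0.0681), and FKBP11 (0.58 ± 0.19, 0.342), FKBP10 (0.36 ± 0.13, 0.408) and HSPA2 (-0.66 ± 0.20, 0.284) followed. With the replicate block HSPB7 and FKBP11 were higher at 24 h than at 8 h, with adjusted p = 0.0180 and 0.0282, where that fit called 0.848% of all genes up and 1.85% down. All 17 ER genes had a positive value, with a median of 0.16, and the cytosolic median was -0.07.

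Set side by side over the 4 groups, the ER and cytosolic classes had different orders. The mean of the 17 ER genes, each centred on its own mean over the 12 arrays, was -0.14, -0.08 and -0.18 in untreated P2 cells, 0.01, 0.09 and 0.12 at 8 h, 0.24, 0.33 and 0.28 at 24 h, and -0.20, -0.42 and -0.06 in P0 cells. The 3 P2 groups do not overlap, and P0 overlaps the untreated P2 arrays. The mean of the 22 cytosolic genes was -0.35, -0.35 and -0.26 in untreated P2 cells, -0.38, -0.31 and -0.23 at 8 h, -0.41, -0.39 and -0.26 at 24 h, and 1.08, 1.05 and 0.82 in P0 cells. Here the P2 groups overlap each other and lie more than 1 log2 unit below P0. The ER mean less the cytosolic mean was 0.19 ± 0.10 in untreated cells, 0.38 ± 0.03 at 8 h, 0.64 ± 0.09 at 24 h and -1.21 ± 0.30 in P0 cells (SD, n = 3 each), a description with no test, since the classes were chosen with results of these data known.

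**Figure D5:**
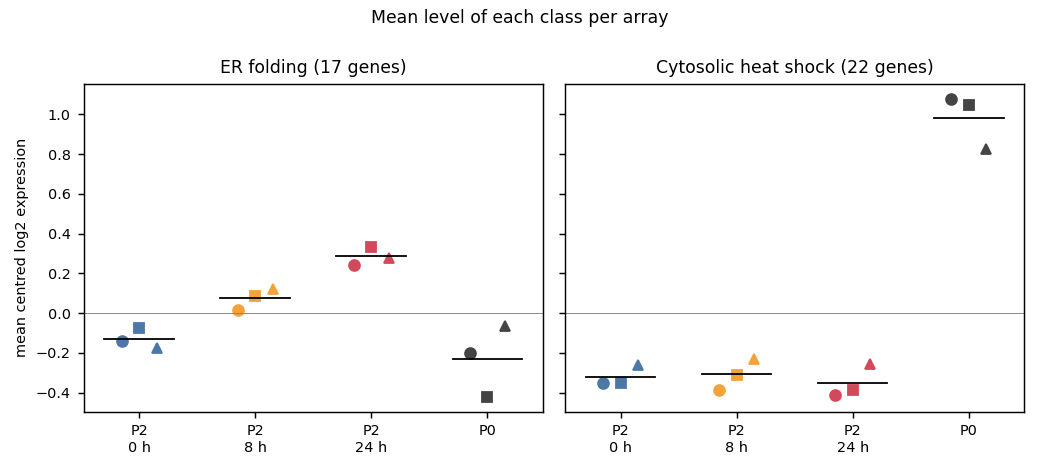
Mean centred log2 expression of the 17 ER folding genes (left) and the 22 cytosolic heat shock genes (right) per array, in untreated P2 cells (0 h), P2 cells after 8 h and 24 h of TGF-β1 and P0 cells. Circles, squares and triangles are replicates 1, 2 and 3 and lines are group means. The ER means run from -0.13 at 0 h to 0.28 at 24 h with no overlap of P2 groups, and the cytosolic means stay at -0.35 to -0.31 in P2 and reach 0.98 in P0.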

How the data were processed

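RNA from 12 preparations was hybridised to Affymetrix porcine 3' IVT arrays. The authors deposited log2 expression values per probe set, made with GCRMA per the submitters' processing notes, which give no version; further steps and batches were not given in the sources used here. Array medians lay between 5.87 and 5.94 and values between 1.74 and 15.95, so the deposited scale was kept; whether it was centred further is unknown. The number of arrays limits the precision, and the median SE of a culture log2 fold change was 0.16.

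Of 23999 probe sets, 10069 carried 1 gene symbol in the platform annotation, 198 several and 13732 none; 64 reporter controls were left out, and their 95th percentile, 4.58, served as control level. Probe sets over log2 4 in at least 3 arrays were fitted by lmFit and eBayes of limma 3.58.1 under R 4.3.3 (group means of all 12 arrays, two-sided, Benjamini-Hochberg over 17638 probe sets), a pipeline tested on simulated data. Of the genes, 25 had several probe sets, and 8 probe sets were of a type that may match several transcripts. Named were up to 5 called members per class and comparison with the largest change, the 2 smallest p-values of a class without a call, a fixed panel and up to 3 called genes of each related list; other members are named to account for their class. The members, classes and lists were chosen with earlier results of these data known.

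The groups share replicate numbers. After group means were removed, the 9 same-number pairs of P2 arrays had correlations from 0.348 to 0.679 and the pairs of unlike number none above 0.0796, so the numbers pair the P2 preparations; with P0 the same-number correlation was -0.0916 to 0.0158. Alternatives were no filter, a filter at log2 6, quantile normalization, median shift, an intensity trend, array weights, fits of 2 groups, 1 probe set per gene, the replicate block, each array left out and, chosen after seeing the data, the P2 arrays numbered 3 left out. Arrays were left out in the fit without the block.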

Additional observations from a re-analysis of the deposited data

How the results depend on the processing

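No named member changed the sign of a called value under any alternative run. The replicate block changed the counts most: over the 117 probe sets it called 13 up and 4 down at 8 h, 25 up and 13 down at 24 h, and 2 up between 24 h and 8 h, where the fit without it called 6 and 1, 12 and 4, and 0; it moved no culture count by over 1.5 times. Leaving out the 3 P2 arrays numbered 3, an alternative chosen after seeing the data, left 2 up and 0 down at 8 h and 7 up and 0 down at 24 h, with 44 up and 35 down in culture; fewer samples entered that fit. Fits of only the 2 groups compared gave 3 up at 8 h and 0 down at 24 h. Array weights gave 3 down at 8 h and 1 up between 24 h and 8 h, and the filter at log2 6 gave 2 down at 8 h and 1 up between 24 h and 8 h. The cause was not tested. Counted with 1 probe set per gene, 20 fell in culture, 3 rose at 8 h, and 6 rose and 2 fell at 24 h, and over all probe sets the cytosolic median in culture was -0.85. With each array left out in turn, culture counts ran from 38 to 45 up and 32 to 36 down, 8 h counts from 2 to 6 up and 0 to 1 down, and 24 h counts from 7 to 12 up and 0 to 5 down, with 0 and 0 between the times. The medians ran over these fits, in cytosolic and ER genes, from -1.43 to -1.19 and -0.05 to 0.15 in culture, -0.02 to 0.06 and 0.11 to 0.16 at 8 h, -0.03 to 0.06 and 0.31 to 0.46 at 24 h, and -0.12 to -0.03 and 0.13 to 0.21 between the times. HSPA5 at 24 h was called under 6 alternatives and HSP70.2 under 4, and CCT4 and CANX lost their culture calls when arrays were shifted to a common median. With 3 arrays a group, values near the threshold are not settled by these data. The dimmest probe sets of CANX and DNAJC11, averaging 4.30 and 4.29, lie near the control level, while their brightest ones average 12.60 and 7.59.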
